A study of Rattus norvegicus with 8 samples.

Results

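The cadherins, claudins, connexins and other genes of cell junctions were followed across 3 stages of the rat male germ line. Members were chosen by symbol: the classical and other numbered cadherins (Cdh), claudins (Cldn), connexins of the Gja, Gjb and Gjc classes, the zonula occludens genes (Tjp), occludin (Ocln), the junctional adhesion molecules (F11r, Jam2 and Jam3), the nectins (older symbols Pvrl1 to Pvrl4) and the nectin-like Cadm genes. The rule used no measured value. It found 74 of the 16764 genes in the count table, of which 41 had enough counts to be tested (of 12210 tested genes in all) and 33 did not. The subfamilies had 13 of 19 cadherins tested, 8 of 25 claudins, 6 of 15 connexins, all 4 zonula occludens and occludin genes, all 3 junctional adhesion molecules, all 4 nectins and 3 of 4 Cadm genes.

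RNA was sequenced from 3 groups of Brown Norway rat germ cells, with 2 libraries each. Undifferentiated spermatogonia (USg) were a spermatogonial stem cell line expanded in SG medium, with RNA taken before plating on laminin. Differentiating spermatogonia (DSg) were the same line 7 days after plating on laminin, of which 120 h were in SD medium, to which all-trans-retinoic acid and neuregulin-1 had been added. The spermatocyte-enriched group (Spc) was primary testis germ cells that did not bind laminin, left over once cells adhering to plastic, to collagen-I and to laminin had been removed, and cultured for 2.5 days in DMEM:Ham's F12 with 10% serum. DSg differed from USg in medium, laminin and time together, and Spc differed from both in source, selection, matrix and medium, so stage cannot be told apart from these. The titles of the USg libraries carry the same 120 h mark as those of DSg, although the protocol places USg at day 0. The labels speak of replicate cultures for the line, which is 1 line, and do not say whether the Spc libraries came from separate animals, so p-values measure the spread between these libraries.

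Cells adhere to each other through several junctions that work side by side. Classical cadherins bind the same cadherin on the neighbouring cell and are held to actin by catenins, and nectins start contacts that cadherins then strengthen. Claudins, occludin and junctional adhesion molecules form tight junctions, which the zonula occludens proteins scaffold, and connexins form gap junctions that pass small molecules between cells. In the testis, E-cadherin (Cdh1) is a known surface marker of undifferentiated spermatogonia, while N-cadherin (Cdh2), Cldn11, Gja1 and nectins are known in the contacts of Sertoli cells with each other and with germ cells.

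The libraries held between 2657291 and 5697165 counts, so that 1 count was worth between 0.178 and 0.404 CPM (counts scaled by library size and TMM factor to a common total). Rows of ribosomal RNA genes summed to 7.81% of the counts in USg 1, 12.4% in DSg 1 and at most 0.734% in the other 4 libraries. The Rn45s row nearly repeated Rn18s (104940 and 104757 counts in USg 1, 165091 and 164874 in DSg 1). The same reads may thus be counted in both rows, and the share of reads would then be lower than these sums. DSg 2 stood apart at low levels: counts of 1045 olfactory receptors came to 1673 CPM of its total, beside 126 to 289 CPM in the other 5. Markers of the stages were checked against the labels. Kit, the receptor of differentiating spermatogonia, rose in DSg from 86 and 63.2 CPM to 597 and 562 CPM, while the other 2 listed differentiation markers, Sohlh1 and Dmrtb1, were not called in DSg. The GDNF co-receptor Gfra1 fell from 183 and 190 CPM to 26.3 and 17 CPM. Of the 6 listed markers of undifferentiated spermatogonia, 4 fell in DSg against USg, and Zbtb16 and Id4 were not called there. In Spc against USg 5 of them fell, but Id4 rose (1.42 ± 0.33, adjusted p = 0.0111). Id4 was also higher in Spc than in DSg (2.97 ± 0.36, adjusted p = 7.82e-04). All 7 spermatocyte markers rose in Spc against USg. Markers of somatic testis cells were also higher in Spc, in summed CPM between 975 and 1211 for 9 Sertoli genes (218 to 436 in the other 4 libraries), 462 to 490 for 5 peritubular myoid genes (42.1 to 58.6), 2266 to 2423 for 5 fibroblast genes (197 to 486), 163 to 174 for 6 Leydig genes (5.4 to 21.3; Star alone 159 and 169 in Spc) and 56.4 to 68.1 for 5 macrophage genes (7.68 to 29.4). Cyp11a1, another Leydig gene, was lower in Spc than in DSg. Among the Sertoli genes, Clu alone stood at 1011 and 787 CPM in Spc. Sox9 and Dhh were not called in Spc against USg, although Sox9 was higher in Spc than in DSg. Of these lists 3 of 9, 5 of 5, 3 of 5, 1 of 6 and 4 of 5 genes rose in Spc against USg. None of their genes was at 0 in both Spc libraries, although the Leydig gene Insl3 had 1 and 0 counts there and the fibroblast gene Lum 4 and 5. In bulk RNA, more cells of a type and more RNA per cell cannot be told apart.

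Between USg and DSg the junction genes differed in few members, and more of them differed between the line and Spc. In DSg against USg, 2 members fell (Cdh3 and Cldn4; 4.88% of the 41 tested, beside 1.92% of all genes) and 0 rose (beside 0.565% of all genes). At an unadjusted p under 0.05, 2 members were higher (Cdh2 and Cdh6) and 8 lower by edgeR, and DESeq2 and limma-voom also called 0 higher, with 5 and 2 lower. In Spc against USg, 10 members rose (24.4%, beside 17.9% of all genes) and 11 fell (26.8%, beside 16.6%). In Spc against DSg, 7 rose (17.1%, beside 14.8%) and 9 fell (22%, beside 11.7%). The shares that rose were near those of all genes, and the shares that fell were above them, without a test of that difference. The median log2 fold change of the tested members was 0.02, -1.01 and -0.70 in these comparisons in turn, beside 0.01, -0.04 and -0.03 for all genes. The member medians were uneven between libraries: without USg 2 the median for Spc against USg was -0.28, without DSg 1 it was -0.40 (-0.33 with no filter, which adds low members), and the others were 0.75 (DSg against USg) and -1.36 (Spc against DSg) without DSg 1 but -0.48 and -0.17 without DSg 2.

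**Figure D1:**
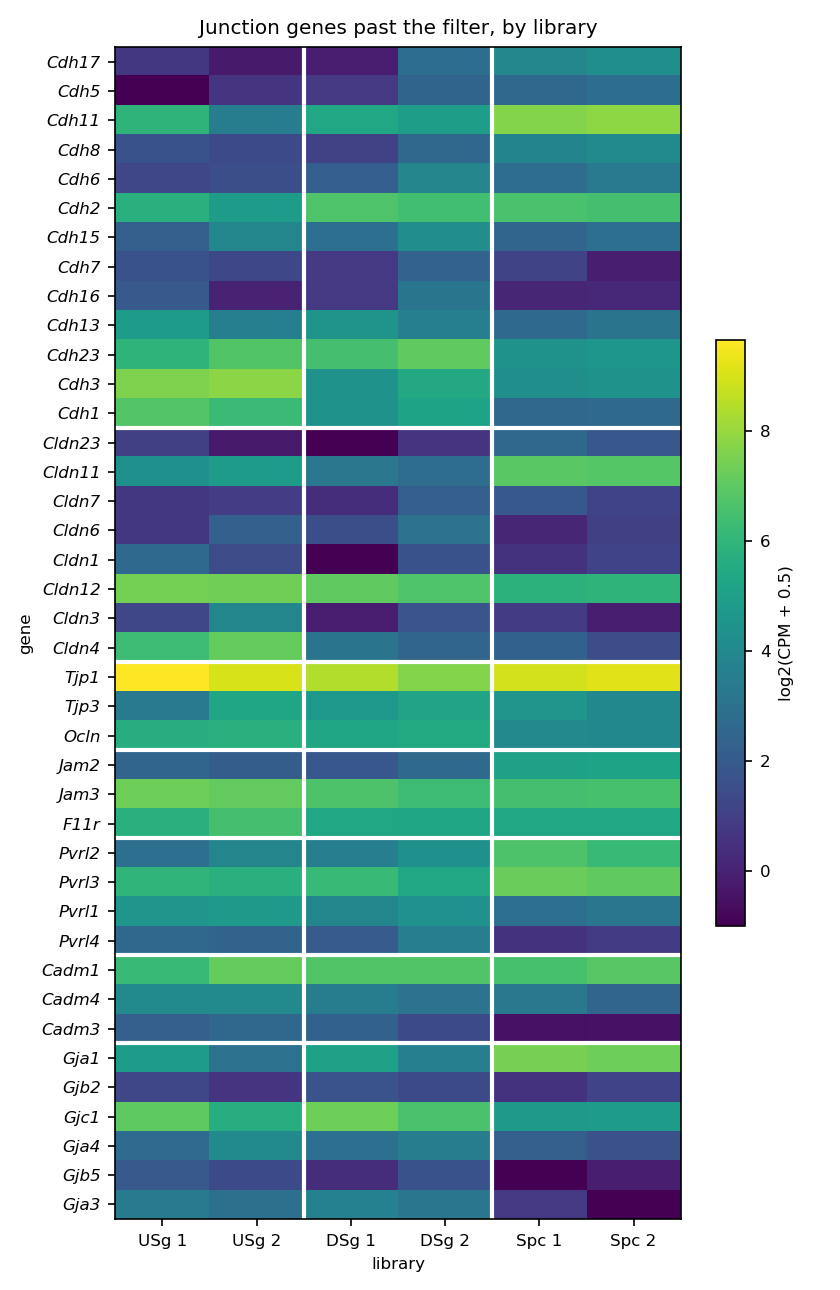
Level of 40 tested junction genes (rows, grouped by subfamily and ordered by change in Spc against USg) in the 6 libraries (columns), as log2(CPM + 0.5), with colour as the scale. The lower rows of most blocks are darker in both Spc libraries and the upper rows brighter, while USg and DSg columns look alike for most genes.

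Over the 3 comparisons, 8 members were lower in Spc than in both stages of the line, among them Cdh1, Cdh23, Cldn12, Ocln, Gja3, Gjc1 and Cadm3, and 7 were higher in Spc than in both (Cdh8, Cdh11, Cldn11, Gja1, Jam2, Pvrl2 and Pvrl3). Cdh3 and Cldn4 were lower in DSg and in Spc than in USg. Cdh2, Cdh5 and Cdh17 rose and Pvrl1 fell in Spc against USg, and Pvrl4 fell in Spc against DSg. The other 19 tested members passed the threshold in none of the 3. How many of all genes had each of these patterns was not counted, so no pattern can be called particular to junction genes. Both comparisons with USg share the USg libraries, and both with Spc the Spc libraries, so these counts are not independent of each other.

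**Figure D2:**
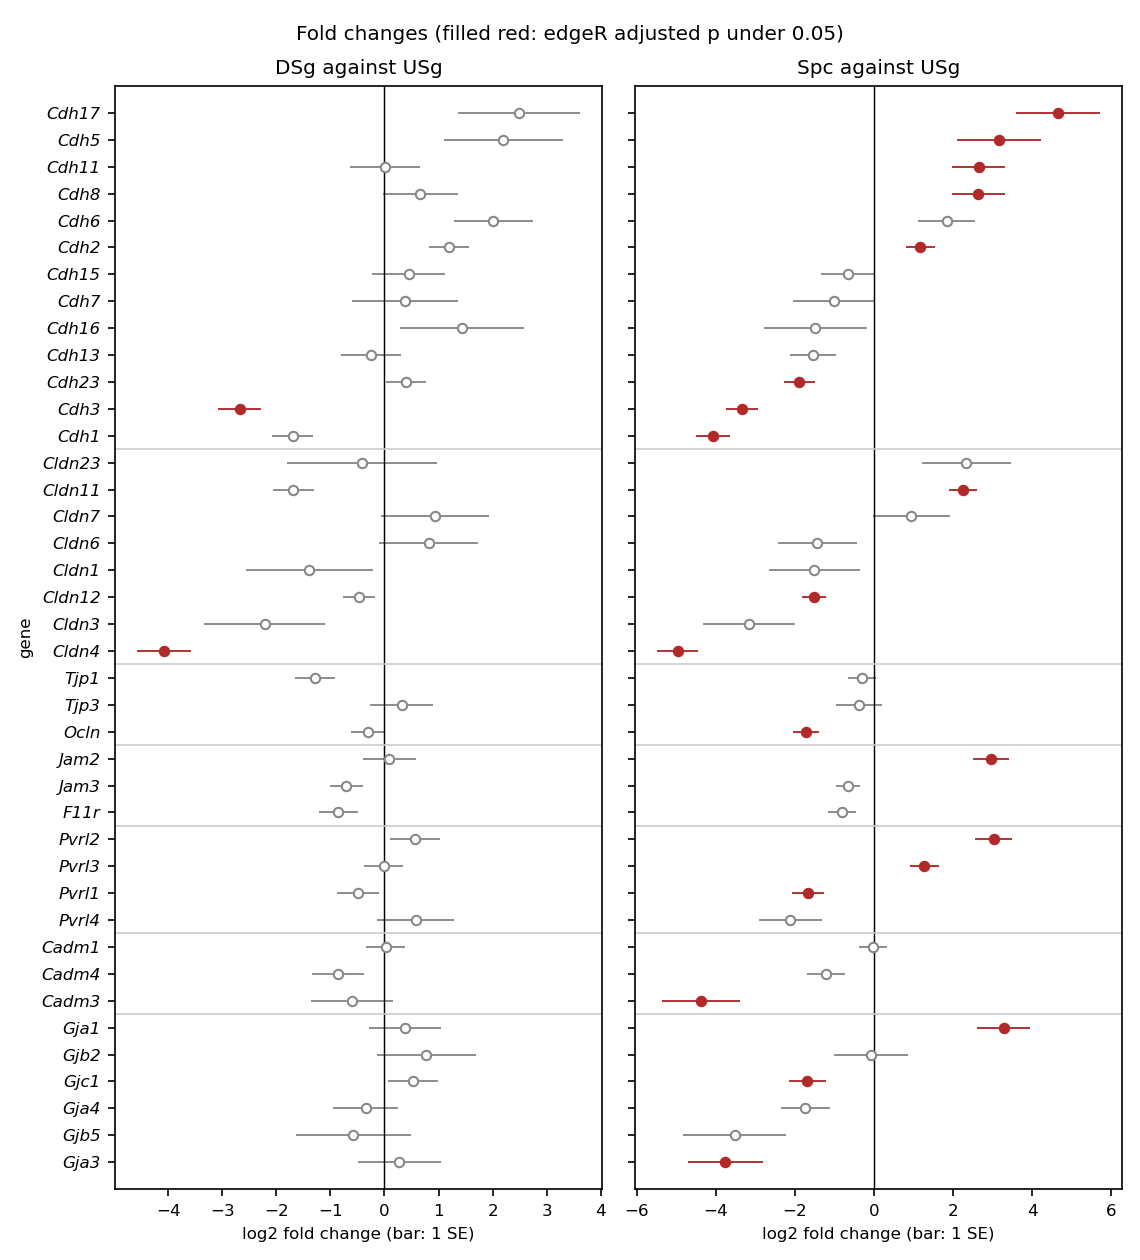
Log2 fold change (points) with 1 SE (bars) of 40 tested junction genes in DSg against USg (left) and Spc against USg (right), grouped by subfamily; filled red points have an adjusted p under 0.05. On the left 2 genes are filled (Cdh3 and Cldn4), and on the right 10 lie filled to the right of 0 and 10 to the left.

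The promoters of a pair of genes that fell in Spc against both other groups (Ocln and Gja3) and a pair that rose (Cldn11 and Jam2) are printed as examples. Each runs 5′ to 3′ along the gene's strand, from 250 bases before to 50 bases after the start, from RefSeq on assembly GRCr8 (chr2:33441149-33441448, chr15:35322356-35322655 and chr2:114149490-114149789 on the minus strand, and chr11:37317310-37317609 on the plus strand). Capitals mark the E-box CAGGTG or CACCTG, the letters that repressors of Cdh1 such as the Snail and Zeb proteins are known to bind, and the GC box GGGCGG or CCGCCC, each pair being 1 motif on both strands. The motifs do not overlap each other.
Ocln: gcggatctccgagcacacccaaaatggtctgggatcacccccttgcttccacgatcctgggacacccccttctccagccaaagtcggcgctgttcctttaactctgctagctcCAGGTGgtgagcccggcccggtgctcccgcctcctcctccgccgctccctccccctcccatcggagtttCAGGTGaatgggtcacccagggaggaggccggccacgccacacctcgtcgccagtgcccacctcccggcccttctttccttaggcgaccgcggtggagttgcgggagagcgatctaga
Gja3: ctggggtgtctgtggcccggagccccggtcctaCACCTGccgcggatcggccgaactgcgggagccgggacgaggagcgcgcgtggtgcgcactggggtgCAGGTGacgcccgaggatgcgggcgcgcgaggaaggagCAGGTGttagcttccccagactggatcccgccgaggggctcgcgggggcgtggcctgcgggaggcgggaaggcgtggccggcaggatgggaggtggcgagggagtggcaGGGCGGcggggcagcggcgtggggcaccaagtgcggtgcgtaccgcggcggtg
Cldn11: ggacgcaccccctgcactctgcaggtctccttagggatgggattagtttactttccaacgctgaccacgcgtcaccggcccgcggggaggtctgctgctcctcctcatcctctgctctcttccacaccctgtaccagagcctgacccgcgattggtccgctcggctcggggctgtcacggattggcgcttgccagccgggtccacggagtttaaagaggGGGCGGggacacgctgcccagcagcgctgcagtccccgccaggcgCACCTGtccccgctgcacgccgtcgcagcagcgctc
Jam2: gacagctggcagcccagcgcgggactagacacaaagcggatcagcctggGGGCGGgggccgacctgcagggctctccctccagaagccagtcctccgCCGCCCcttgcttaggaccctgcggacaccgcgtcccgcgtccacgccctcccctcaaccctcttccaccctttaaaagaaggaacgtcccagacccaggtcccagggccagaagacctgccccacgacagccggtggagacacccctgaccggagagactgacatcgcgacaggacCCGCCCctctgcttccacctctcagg

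In these windows Ocln had E-boxes at -137 and -68 from the start, Gja3 at -217, -150 and -112, and Cldn11 at 15, while Jam2 had none. The GC box stood at -3 in Gja3, at -31 in Cldn11 and at -201, -153 and 25 in Jam2. Among all 33469 RefSeq promoters, 18.8% held an E-box and 33.1% a GC box. Of the 49 promoters of 48 members that matched, 15 (30.6%) held an E-box and 25 (51.0%) a GC box. No E-box stood in the windows of Cdh23, Cldn12 and Pvrl4, which were also called lower in Spc. The same held for Cdh8, Gja1 and Pvrl3, which were also called higher. The printed pairs therefore do not stand for all called members, and a link of E-boxes with a fall was not tested. These matches describe letters and not binding, and both motifs stand in genes that rose as well as in genes that fell.

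Among the classical cadherins, Cdh1 and Cdh3 were high in USg and Cdh2 was high in DSg and Spc. Cdh1, which encodes E-cadherin, was at 113 and 75.9 CPM in USg, 21.8 and 35.8 CPM in DSg and 5.32 and 5.88 CPM in Spc. The libraries of the 3 groups did not overlap, in the order USg, DSg, Spc. Cdh1 fell in Spc against USg 16.7-fold (log2 fold change -4.06 ± 0.43 SE, edgeR adjusted p = 3.22e-04, n = 2 libraries a group) and against DSg 5.15-fold (-2.37 ± 0.42, adjusted p = 0.00432). Its difference between DSg and USg missed the threshold (-1.70 ± 0.38, adjusted p = 0.0576), and it passed with DESeq2 (0.00745), with no filter (0.00306) and when USg 1 (0.0225), USg 2 (0.0137), Spc 1 (0.0375) or Spc 2 (0.0421) was left out. Cdh3, which encodes P-cadherin, was at 195 and 221 CPM in USg, 21.4 and 43.1 CPM in DSg and 19.5 and 21.3 CPM in Spc. The USg libraries stood above all the others, and DSg and Spc lay close together. Cdh3 fell 6.41-fold in DSg (-2.68 ± 0.39, adjusted p = 0.0147) and 10.2-fold in Spc against USg (-3.35 ± 0.40, adjusted p = 5.41e-04). Cdh1 and Cdh3 are neighbours among these genes on rat chromosome 19 in the RefSeq table.

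Cdh2, which encodes N-cadherin, was at 54.8 and 29.4 CPM in USg, 104 and 85.9 CPM in DSg and 96.8 and 91.7 CPM in Spc. Both USg libraries were below the other 4, which overlapped. Cdh2 rose 2.26-fold in Spc against USg (1.17 ± 0.37, adjusted p = 0.037). This call was lost without USg 2 (0.163), DSg 1 (0.0532), DSg 2 (0.0533), Spc 1 (0.241) or Spc 2 (0.186), and in the fit of the 4 libraries compared (0.0571). The difference of Cdh2 between DSg and USg did not pass (adjusted p = 0.14), although its libraries did not overlap either.

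Among the type II and other cadherins, Cdh5, Cdh8, Cdh11 and Cdh17 rose in Spc against USg, Cdh23 fell, and Cdh6, Cdh7, Cdh13 and Cdh16 were not called by edgeR. Cdh11, a type II cadherin known from mesenchymal cells, was at 60.6 and 10.7 CPM in USg, 40.8 and 29.9 CPM in DSg and 208 and 228 CPM in Spc. Both Spc libraries were above all others, and the 2 USg libraries differed from each other more than USg differed from DSg. Cdh11 rose 6.26-fold against USg (2.65 ± 0.67, adjusted p = 0.0154) and 6.18-fold against DSg (2.63 ± 0.67, adjusted p = 0.0199), the latter being lost without DSg 1 (0.0777) or DSg 2 (0.14). Cdh8, another type II cadherin, was at 2.7 and 2.14 CPM in USg, 1.62 and 5.65 CPM in DSg and 13.4 and 16.5 CPM in Spc. It rose in Spc against USg (2.64 ± 0.66, adjusted p = 0.0153) and DSg (1.98 ± 0.64, adjusted p = 0.0492), with the first call lost without Spc 2 (0.0972) and the second without DSg 1 (0.0824), Spc 1 (0.134) or Spc 2 (0.26) and with upper quartile (0.0967) or total-count scaling (0.124). Cdh11 and Cdh5 lie next to each other on chromosome 19 among these genes. The rise of these genes in Spc went with the higher summed levels of fibroblast and myoid markers given above, and the part of those cells in it was not tested.

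Cdh17 and Cdh5 were low in the line and rose in Spc against USg. Cdh17, known as a cadherin of liver and intestine, was at 1.16 and 0.356 CPM in USg, 0.404 and 6.73 CPM in DSg and 14.8 and 19.4 CPM in Spc (4.65 ± 1.06, adjusted p = 0.0102). Against DSg it missed the threshold (2.16 ± 0.86, adjusted p = 0.0961) and passed with no filter (0.00167), without DSg 2, the library with the raised olfactory receptor counts (5.29, adjusted p = 0.0204), and without USg 1 (0.0241) or USg 2 (0.0219). Cdh5, the cadherin of vascular endothelium, was at 0 and 1.07 CPM in USg, 1.21 and 4.85 CPM in DSg and 5.52 and 6.75 CPM in Spc (3.16 ± 1.07 against USg, adjusted p = 0.0483). Its call was lost without USg 1 (0.113), Spc 1 (0.14) or Spc 2 (0.216) and with upper quartile (0.0615) or total-count scaling (0.0776). The endothelial markers went the other way: 6 of them summed to 213 and 140 CPM in USg, 62.2 and 92.1 CPM in DSg and 33.3 and 43.1 CPM in Spc, with Pecam1, Kdr and Vwf lower in Spc than in USg.

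Cdh23 fell in Spc, and Cdh13 did not pass by edgeR with all 6 libraries. Cdh23, the cadherin of the tip links of hair cells, was at 60.2 and 108 CPM in USg, 90.5 and 132 CPM in DSg and 22.1 and 23.5 CPM in Spc. It was lower in both Spc libraries than in all 4 of the line, by 3.70-fold against USg (-1.89 ± 0.39, adjusted p = 0.00629) and 4.88-fold against DSg (-2.29 ± 0.39, adjusted p = 0.00401), the former being lost without Spc 1 (0.0534). Its gene body overlaps Psap and Vsir in the RefSeq table, and the strand setting of the counts is not given in the sources used here, so its level is uncertain. Cdh13, the cadherin that is anchored to the membrane without a cytoplasmic tail, was at 29.3 and 11.6 CPM in USg, 22.6 and 11.6 CPM in DSg and 5.72 and 8.06 CPM in Spc, below the line in both Spc libraries. Against USg its log2 fold change of -1.54 (adjusted p = 0.0649) passed with DESeq2 (0.0463), with no filter (0.0165) and without USg 2 (0.00787), and without USg 2 it also passed against DSg. Cdh6, Cdh7, Cdh15 and Cdh16 were not called by edgeR with all 6 libraries (Cdh6 was higher in Spc than USg with no filter, without either DSg library and in the fit of the 4 libraries), with the highest group mean of each between 2.90 and 12.9 CPM.

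**Figure D3:**
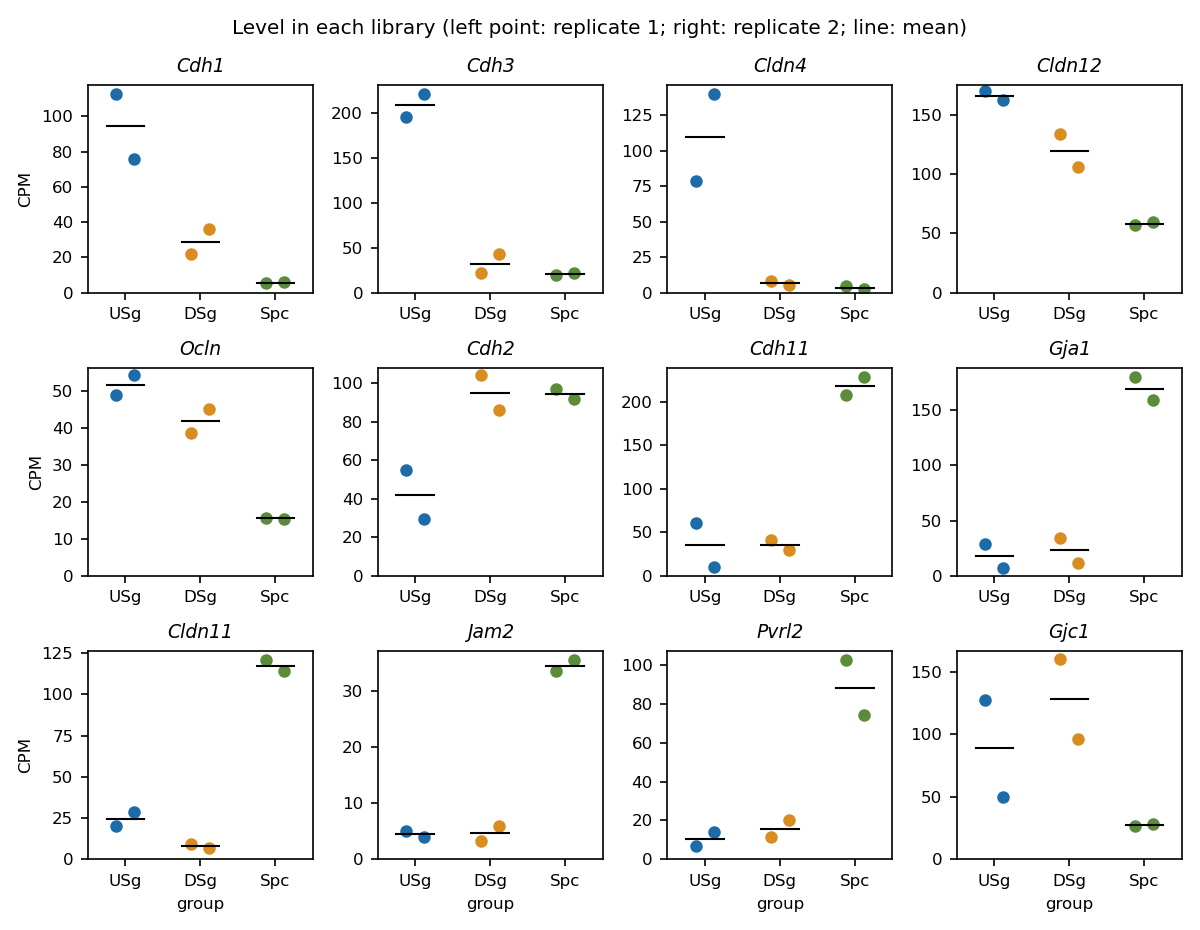
Level in CPM of 12 junction genes in each library (points) with the group mean (line); each panel has its own axis from 0. Cdh1, Cdh3 and Cldn4 are high in both USg libraries, Cldn12, Ocln and Gjc1 are low in both Spc libraries, and Cdh11, Gja1, Cldn11, Jam2 and Pvrl2 are high in both Spc libraries.

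Of the 8 tested claudins, 3 were called in some comparison. In Spc against USg 12.5% of them rose and 25% fell, beside 17.9% and 16.6% of all genes. Cldn4, a claudin of many epithelia, was at 79.1 and 140 CPM in USg, 8.08 and 5.12 CPM in DSg and 4.53 and 2.39 CPM in Spc. The USg libraries were far above the other 4. Cldn4 fell 16.8-fold in DSg (-4.07 ± 0.50, adjusted p = 0.00774) and 31.2-fold in Spc (-4.97 ± 0.51, adjusted p = 3.02e-04) against USg. The calls of Cldn4 and Cdh3 in DSg were lost when DSg 1 (both 0.108) or DSg 2 (0.184 for Cldn4 and 0.127 for Cdh3) was left out, and those fits keep a lone DSg library that is assumed to vary like the other groups. Cldn3, the neighbour of Cldn4 on chromosome 12 among these genes, was at 1.93 and 14.4 CPM in USg, 0.404 and 2.96 CPM in DSg and 1.38 and 0.435 CPM in Spc. It was not called by edgeR with all 6 libraries, and was called lower in Spc than USg by DESeq2, with no filter and without USg 1.

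Cldn11, the claudin of Sertoli cell tight junctions and of myelin, went the other way. It was at 20.1 and 28.7 CPM in USg, 8.89 and 6.46 CPM in DSg and 121 and 114 CPM in Spc. The 3 groups did not overlap, with DSg lowest and Spc highest. Cldn11 rose in Spc 4.78-fold against USg (2.26 ± 0.35, adjusted p = 0.0017) and 15.4-fold against DSg (3.95 ± 0.39, adjusted p = 3.68e-04). In DSg against USg it missed the threshold (-1.69 ± 0.38, adjusted p = 0.0556) and passed without USg 1 (0.0111), without the filter (0.00813) and with DESeq2 (0.0106). Of the 9 Sertoli markers, Wt1, Gata4 and Clu also rose in Spc against USg, and the part of Sertoli cells in the rise of Cldn11 was not tested.

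Cldn12, which is widely expressed, was at 170 and 163 CPM in USg, 134 and 106 CPM in DSg and 56.8 and 59.9 CPM in Spc, in 3 groups that did not overlap. It fell in Spc 2.85-fold against USg (-1.51 ± 0.30, adjusted p = 0.00515) and 2.05-fold against DSg (-1.04 ± 0.30, adjusted p = 0.0319). The first call was lost without Spc 1 (0.127) or Spc 2 (0.108) and the second without DSg 1 (0.172), Spc 1 (0.453) or Spc 2 (0.376) and without the filter (0.146). The tested claudins Cldn1, Cldn6, Cldn7 and Cldn23 were at or below 4.98 CPM in the mean of their highest group and were not called by edgeR with all 6 libraries (in the fit of the 4 libraries Cldn23 was higher in Spc than USg).

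Occludin fell in Spc, and the scaffold genes Tjp1 and Tjp3 did not pass. Ocln, whose product spans the membrane at tight junctions, was at 49 and 54.5 CPM in USg, 38.8 and 45.2 CPM in DSg and 15.8 and 15.5 CPM in Spc. Both Spc libraries were below all 4 of the line. Ocln fell 3.31-fold against USg (-1.73 ± 0.33, adjusted p = 0.00426) and 2.69-fold against DSg (-1.43 ± 0.33, adjusted p = 0.0134). Against DSg, Ocln lost its call without DSg 1 (0.0527), DSg 2 (0.0557), Spc 1 (0.233) or Spc 2 (0.222). Against USg, Ocln lost its call without Spc 1 (0.0746) or Spc 2 (0.0819).

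Tjp1 followed another course. It was at 810 and 512 CPM in USg, 343 and 202 CPM in DSg and 494 and 578 CPM in Spc. The DSg libraries were the lowest, and USg and Spc overlapped. Its difference between DSg and USg did not pass by edgeR (-1.28 ± 0.37, adjusted p = 0.114) and passed with DESeq2 (0.0327) and without the filter (0.0325). The difference between Spc and DSg (0.97 ± 0.37, adjusted p = 0.081) passed in the fit of the 4 libraries compared (0.0314) and without USg 1 (0.0425), USg 2 (0.0413) or DSg 1 (0.04999). Tjp3 was at 9.65 and 38.8 CPM in USg, 25.1 and 36.6 CPM in DSg and 22.9 and 15.2 CPM in Spc, and the groups overlapped. Tjp3 overlaps Apba3 in the RefSeq table, so its level is uncertain.

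Of the junctional adhesion molecules, immunoglobulin-type proteins of tight junctions, Jam2 rose in Spc and its relatives were not called. Jam2 was at 5.02 and 3.92 CPM in USg, 3.23 and 5.92 CPM in DSg and 33.5 and 35.5 CPM in Spc. Both Spc libraries were far above the other 4, which overlapped. Jam2 rose 7.80-fold against USg (2.96 ± 0.46, adjusted p = 0.00163) and 7.32-fold against DSg (2.87 ± 0.46, adjusted p = 0.00279), and no library left out ended either call. Jam3, which pairs with Jam2 across contacts, was at 157 and 137 CPM in USg, 101 and 79.4 CPM in DSg and 91.8 and 94.7 CPM in Spc. The USg libraries were the highest, but no comparison passed. F11r, which encodes JAM-A of epithelial tight junctions, was at 53.6 and 90.3 CPM in USg, 41.6 and 38.5 CPM in DSg and 41.4 and 40.9 CPM in Spc, also highest in USg and not called by edgeR with all 6 libraries, although without USg 1 it was lower in DSg and in Spc than USg.

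The 4 nectins split. Pvrl2 and Pvrl3, known at the contacts of Sertoli cells and spermatids, rose in Spc, and Pvrl1 and Pvrl4 fell in 1 comparison each. In each Spc comparison 50% rose and 25% fell, beside 17.9% and 16.6% of all genes against USg, and 14.8% and 11.7% against DSg. Pvrl2 was at 6.95 and 14.1 CPM in USg, 11.3 and 20.2 CPM in DSg and 103 and 74.5 CPM in Spc. Pvrl2 rose 8.19-fold against USg (3.03 ± 0.47, adjusted p = 0.00167) and 5.56-fold against DSg (2.47 ± 0.46, adjusted p = 0.00541). Pvrl3 was at 62.1 and 53.8 CPM in USg, 74.3 and 40.7 CPM in DSg and 149 and 132 CPM in Spc. Both genes had Spc libraries above all 4 of the line. Pvrl3 rose 2.42-fold against USg (1.28 ± 0.36, adjusted p = 0.0245) and 2.45-fold against DSg (1.29 ± 0.36, adjusted p = 0.0295). Its call against USg was lost without USg 1 (0.0513), USg 2 (0.0799), Spc 1 (0.21) or Spc 2 (0.119), and against DSg without DSg 2 (0.129), Spc 1 (0.217) or Spc 2 (0.125).

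Pvrl1 was at 23.2 and 26.4 CPM in USg, 14.5 and 20.5 CPM in DSg and 6.9 and 8.71 CPM in Spc. The 3 groups did not overlap, with Spc lowest. Pvrl1 fell 3.17-fold in Spc against USg (-1.67 ± 0.40, adjusted p = 0.0126), a call lost without Spc 1 (0.157) or Spc 2 (0.0783). Against DSg it missed the threshold (-1.17, adjusted p = 0.0607) and passed without USg 1 (0.0472) or USg 2 (0.0375), with upper quartile scaling (0.0416) and in the fit of the 4 libraries compared (0.0451). Pvrl4 was at 5.4 and 4.81 CPM in USg, 3.64 and 11.3 CPM in DSg and 0.985 and 1.31 CPM in Spc. It was lowest in both Spc libraries and fell against DSg (-2.70 ± 0.79, adjusted p = 0.0352), a call lost without DSg 2 (0.156), Spc 1 (0.26) or Spc 2 (0.176) and with limma-voom (0.0632). Against USg the log2 fold change of Pvrl4 was -2.12 (adjusted p = 0.0676), which passed without DSg 1 (0.0245) or DSg 2 (0.0283), without the filter (0.0388) and in the fit of the 4 libraries compared (0.0196).

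Among the nectin-like Cadm genes, Cadm1, an adhesion molecule known on spermatogenic cells, was at 74.5 and 141 CPM in USg, 110 CPM in both DSg libraries and 92.8 and 120 CPM in Spc. The groups overlapped and Cadm1 was not called. Cadm3 had 42 counts over both USg libraries, 19 over both DSg libraries and 2 over both Spc libraries. Its level was 24.7 times as high in USg as in Spc (95% exact binomial interval 6.43 to 210.9, which covers counting error only) and 14.8 times as high in DSg (3.58 to 131), and it was called lower in Spc in both comparisons (adjusted p = 0.00953 and 0.0255). The Cadm3 call against USg was lost without USg 2, Spc 1 or Spc 2. The Cadm3 call against DSg was lost without USg 2, DSg 1, Spc 1 or Spc 2, and with limma-voom. Cadm4 was at 16.2 and 16.7 CPM in USg, 10.5 and 7.81 CPM in DSg and 9.07 and 5.01 CPM in Spc, highest in USg. It was not called by edgeR, and limma-voom called it lower in Spc than USg.

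Of the 6 tested connexins, Gja1 rose and Gja3 and Gjc1 fell in Spc against both stages of the line. These 16.7% and 33.3% stood beside 17.9% and 16.6% of all genes against USg, and 14.8% and 11.7% against DSg. Gja1, the main connexin of the seminiferous epithelium, was at 28.6 and 7.48 CPM in USg, 34.3 and 11.6 CPM in DSg and 180 and 159 CPM in Spc. Both Spc libraries were above the other 4, and library 1 exceeded library 2 in USg and in DSg. Gja1 rose 9.71-fold against USg (3.28 ± 0.68, adjusted p = 0.00633) and 7.47-fold against DSg (2.90 ± 0.67, adjusted p = 0.0135), the latter lost without DSg 2 (0.0971). Sertoli and myoid markers, whose summed levels were higher in Spc as given above, come from cells in which Gja1 is known. The part of those cells in the rise of Gja1 was not tested.

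Gjc1, a connexin known from the heart's conduction tissue and from smooth muscle, was at 128 and 49.9 CPM in USg, 160 and 96.4 CPM in DSg and 26.6 and 28.3 CPM in Spc. All 4 libraries of the line were above Spc. Gjc1 fell 3.21-fold against USg (-1.68 ± 0.48, adjusted p = 0.025) and 4.66-fold against DSg (-2.22 ± 0.48, adjusted p = 0.0108). Left-out libraries that ended the first call were USg 1 (-0.90, adjusted p = 0.136), Spc 1 (0.0936) and Spc 2 (0.0768), and DSg 1 ended the second (0.0811). Gja3, a connexin known from the lens, was at 10.4 and 7.12 CPM in USg, 12.5 and 8.62 CPM in DSg and 1.18 and 0 CPM in Spc, again with the line above Spc in every library. It fell against USg (-3.76 ± 0.95, adjusted p = 0.0154) and DSg (-4.04 ± 0.95, adjusted p = 0.0149). The call against USg was lost without Spc 2 (-2.83, adjusted p = 0.0551) and the call against DSg without DSg 1 (0.0591), and the fitted size depends on which low Spc library is kept. Gja4, Gjb2 and Gjb5 were not called by edgeR with all 6 libraries (Gja4 was lower in Spc than USg with no filter and without USg 1, and Gjb5 in the fit of the 4 libraries and without either DSg library), with the highest group mean of each between 2.49 and 11.1 CPM.

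The 33 members that were not tested were near the edge of detection, and 1 library stood out in them. They were 17 claudins (Cldn2, Cldn5, Cldn8, Cldn9, Cldn10, Cldn14 to Cldn20, Cldn22, Cldn24, Cldn34a, Cldn34d and Cldn34e), 9 connexins (among them Gja5, Gja6, Gja10, Gjb1 and Gjb6), 6 cadherins (Cdh9, Cdh10, Cdh19, Cdh20, Cdh22 and Cdh26) and Cadm2. Together they summed to 14.3 and 22.1 CPM in USg, 18.6 and 90.7 CPM in DSg and 16.2 and 22.6 CPM in Spc. DSg 2 stood above every other library, was the highest library for 29 of the 33, and had a count for 32 of them, beside 18 to 28 in the others. The same library held the raised olfactory receptor counts, and the part of that library's background in the members was not tested. Cldn5, the claudin of endothelium, and Gjb1, the connexin of liver, were among these 33. Differences between the stages were not tested in these members. Chosen after their values were seen, Cdh9 had 1 count over USg and 14 over Spc, 11.9 times as high per library size (95% interval 1.81 to 503 for counting error), and Gja10 had 2 and 16 (6.79 times, 1.60 to 60.9). Over DSg, Cdh9 had 17 counts, and its mean was higher there (2.63 CPM) than in Spc (1.42 CPM). Gja10 had 0 counts in DSg 1 and 10 in DSg 2.

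**Figure D4:**
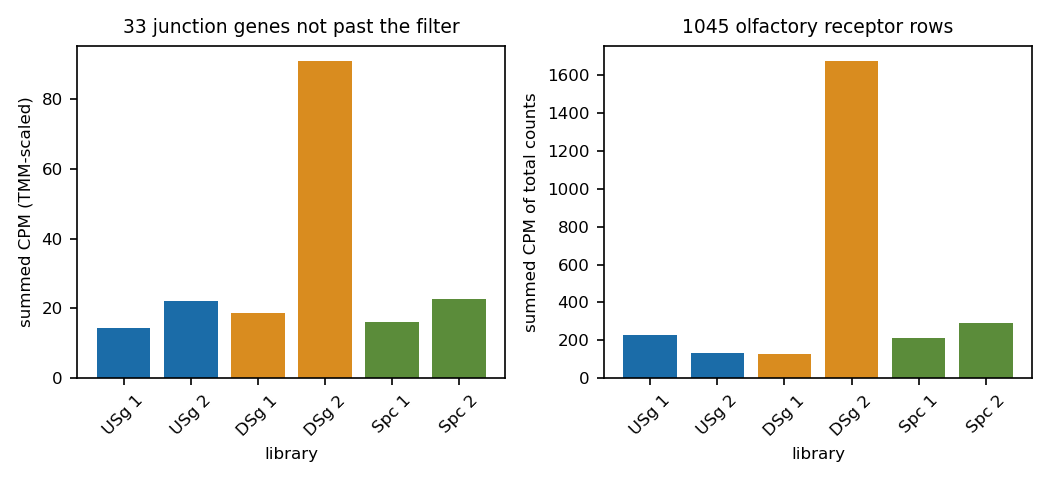
Summed CPM by library of the 33 junction genes that were not tested (left) and of 1045 olfactory receptor genes (right, CPM of total counts); bars start at 0 and are coloured by group. DSg 2 is at 90.7 and 1673 CPM and the other libraries lie between 14.3 and 22.6 and between 126 and 289 CPM.

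Other genes of the same junctions were taken from lists. Of 12 cytoplasmic partners of cadherins and nectins, all tested, 3 rose in Spc against USg (Ctnnd1, Vcl and Vezt) and 2 fell (Ctnnd2 and Arvcf). These 25% and 16.7% were near the 17.9% and 16.6% of all genes. In DSg against USg 0 were called by edgeR, DESeq2 or limma-voom (2 higher and 1 lower at an unadjusted p under 0.05). Vcl, which encodes the actin linker vinculin, was at 122 and 61.6 CPM in USg, 120 and 109 CPM in DSg and 484 and 471 CPM in Spc (2.38 ± 0.38 against USg, adjusted p = 0.0018). The delta-catenin gene Ctnnd2 was at 32.8 and 31.2 CPM in USg, 14.9 and 19.1 CPM in DSg and 3.55 and 5.66 CPM in Spc (-2.79 ± 0.42 against USg, adjusted p = 0.00153). Both were clear of the line in both Spc libraries. Leaving out Spc 1 or Spc 2 left 1 higher and 1 lower call, and Vezt (1.56 ± 0.37, adjusted p = 0.0123) was lost without Spc 1 (0.0609) or Spc 2 (0.0911). Leaving out USg 2 left 2 higher and 1 lower.

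Of 28 genes of tight junction scaffolds and polarity complexes, 2 rose in Spc against USg (Magi2 and Ybx3) and 3 fell (Pard6g, Prkci and Llgl1), with a lower count of 5 without USg 1, 6 without USg 2 and 2 without Spc 2. These 7.14% and 10.7% were below the shares of all genes. Pard6g, a subunit of the Par polarity complex, was at 17.8 and 22.3 CPM in USg, 15.8 and 21.5 CPM in DSg and 2.96 and 2.61 CPM in Spc (-2.84 ± 0.45 against USg, adjusted p = 0.00188). Ybx3, a regulator that binds the scaffold protein of Tjp1, was at 79.9 and 58.6 CPM in USg, 71.1 and 28.5 CPM in DSg and 382 and 401 CPM in Spc (2.50 ± 0.44, adjusted p = 0.00302). In both genes USg and DSg overlapped and Spc stood apart. Of 5 tested desmosome genes, 2 fell in Spc against USg (40%, beside 16.6% of all genes). They were Perp (-3.16 ± 0.40, adjusted p = 6.73e-04) and Pkp1 (-2.51 ± 0.42, adjusted p = 0.00238). Of the pannexins, which form channels related to connexins, Panx1 (-2.56 ± 0.44, adjusted p = 0.00249) and Panx2 (-2.85 ± 0.57, adjusted p = 0.00531) fell, and these 4 calls held with any 1 library left out.

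The list of other immunoglobulin-type junction genes also held genes of other types, among them the Popeye genes and Epcam. On this list 1 gene fell and 1 rose in DSg against USg (7.69% of 13 tested each, beside 1.92% and 0.565% of all genes). Clmp, a relative of the junctional adhesion molecules, was at 163 and 88.1 CPM in USg, 31.5 and 25 CPM in DSg and 433 and 554 CPM in Spc. It fell in DSg (-2.15 ± 0.39, adjusted p = 0.0298) and rose in Spc against USg (1.98 ± 0.37, adjusted p = 0.00413), with DSg lowest and Spc highest as for Cldn11. Nrcam, a neuronal adhesion molecule, was at 3.09 and 4.63 CPM in USg, 21 and 27.5 CPM in DSg and 21.7 and 23.5 CPM in Spc, and rose in DSg (2.60 ± 0.43, adjusted p = 0.0245). Both calls in DSg were lost in the fit of the 4 libraries compared (0.0819 for Clmp and 0.0794 for Nrcam), without DSg 1 (0.118 and 0.114) and without DSg 2 (0.217 and 0.191). Of 13 tested genes of this list 3 rose and 4 fell in Spc against USg (23.1% and 30.8%, beside 17.9% and 16.6% of all genes). Among them were Vsig1, a junction protein of stomach and testis (4.76 ± 0.98, adjusted p = 0.00622), and the Popeye genes Popdc3 (-4.23 ± 0.63, adjusted p = 0.00134) and Bves (-3.62 ± 0.58, adjusted p = 0.0019). The others that fell were L1cam and Epcam, and Epcam is counted again on the epithelial list. Of 21 tested protocadherins and atypical cadherins, 4 rose (Pcdh11x, Pcdh17, Pcdh18 and Fat4) and 5 fell (Fat1, Celsr2, Clstn1, Clstn2 and Clstn3) in Spc against USg. These 19% and 23.8% stood beside 17.9% and 16.6% of all genes, without a test of the difference. Without Spc 1, 2 of the 4 were called higher, and Pcdh17 (3.27 ± 0.95, adjusted p = 0.027) was lost (0.122).

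Of 9 tested epithelial genes, 6 fell in Spc against USg (Epcam, Esrp1, Esrp2, Ovol2, Rab25 and St14), 3 were not called (Grhl2, Ovol1 and Krt8) and 0 rose by edgeR, DESeq2 or limma-voom or at an unadjusted p under 0.05. The share that fell was 66.7%, beside 16.6% of all genes, without a test of the difference. Without USg 2 or Spc 1 fewer epithelial genes were called lower, and Rab25 lost its call without USg 2. In DSg against USg, 1 (Esrp1) fell (11.1%, beside 1.92% of all genes). Ovol1, Esrp2, Grhl2 and Krt8 had fold changes above 0 there without a call. Esrp1, a splicing factor of epithelia, was at 248 and 130 CPM in USg, 42 and 23.4 CPM in DSg and 6.5 and 6.31 CPM in Spc, in the same order of groups as Cdh1. Its log2 fold change was -2.54 ± 0.44 in DSg (adjusted p = 0.027) and -4.87 ± 0.49 in Spc (adjusted p = 2.76e-04) against USg. The call in DSg was lost without DSg 1 (0.111) or DSg 2 (0.212) and in the fit of the 4 libraries compared (0.0611), and without USg 1 the epithelial genes lower in DSg numbered 3. Epcam, an adhesion molecule of epithelia and of spermatogonia, was at 319 and 260 CPM in USg, 252 and 133 CPM in DSg and 44.9 and 46.2 CPM in Spc, lowest in both Spc libraries (-2.67 ± 0.38 against USg, adjusted p = 0.00113). The keratin genes on the epithelial marker list were at or under 4.58 CPM in every library.

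Of 11 transcription factors on the list of repressors of E-cadherin, Zeb2 rose in Spc against USg, and Twist1, Tcf3 and Gsc fell. The shares that rose and fell were 9.09% and 27.3%, beside 17.9% and 16.6% of all genes, without a test of the difference. Zeb2 was at 14.3 and 2.14 CPM in USg, 6.87 and 7 CPM in DSg and 97.6 and 120 CPM in Spc (3.84 ± 0.71, adjusted p = 0.00374). Twist1 was at 61.7 and 24.8 CPM in USg, 17 and 4.31 CPM in DSg and 7.29 and 6.31 CPM in Spc (-2.65 ± 0.67, adjusted p = 0.0154). Members of the repressor list moved both ways in Spc against USg, and their part in the fall of Cdh1 was not tested. Leaving out USg 2 gave 2 higher and 2 lower, and leaving out Spc 1 or Spc 2 gave 2 lower. Zeb2 is also known from mesenchymal and immune cells, whose markers were higher in Spc, and their part in its rise was not tested.

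Against DSg, the list counts in Spc depended more on single libraries. The partners had 1 higher (Vcl) and 2 lower, with the lower count at 1 without DSg 1 or Spc 2 and 0 without DSg 2 or Spc 1, and the higher count at 2 without USg 1 or USg 2. The scaffold and polarity genes had 2 higher and 6 lower, with the lower count at 1 without DSg 1 or Spc 2, 2 without Spc 1 and 3 without DSg 2. The immunoglobulin-type list had 3 higher and 4 lower (Epcam and the Popeye genes among them), with fewer higher calls without DSg 1, Spc 1 or Spc 2. Its lower calls were also fewer whichever library was left out. The protocadherins and atypical cadherins had 0 higher (also by DESeq2, by limma-voom and at an unadjusted p under 0.05) and 7 lower by edgeR, with the lower count at 1 without Spc 1 and 2 without DSg 2 or Spc 2. The epithelial genes likewise had 0 higher, and 4 lower, with the lower count at 2 without DSg 1, DSg 2 or Spc 1. The repressors had 1 higher (Zeb2) and 0 lower by edgeR and limma-voom (1 lower by DESeq2, 3 at an unadjusted p under 0.05), the call of Zeb2 being lost without DSg 2 (0.0568). The desmosome genes had 1 higher (Pkp2) and 2 lower (Pkp1 and Perp). Unlike the calls of Pkp1 and Perp against USg, none of these held with every library left out in turn. Over the 16 alternatives the log2 fold change against DSg lay between -2.31 and -1.75 for Pkp1 and between -1.91 and -1.20 for Perp. Of all genes 14.8% were higher and 11.7% lower in the main fit, and these shares were not counted with libraries left out.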

How the data were processed

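The authors deposited raw counts per gene symbol for 6 RNA libraries, as the values show: all are whole numbers, and column totals differ. Tools named in the submitters' processing notes are STAR 2.5.3a, featureCounts, Subread 1.4.6, edgeR 3.2.4, Bowtie2 2.2.3, Picard 1.127 and HOMER, and builds rn6 and rn5, with no role given. For the counts, build, annotation and strand use were "not given in the sources used here", so overlapping or near-identical genes may share or lose reads. Samples were grouped by their labels, and 2 samples of Foxa2 chromatin immunoprecipitation were not analysed here.

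Counts were scaled with TMM factors, filtered with filterByExpr (minimum count 10, minimum total 15) and fitted once for all 6 libraries at 3 residual degrees of freedom. Groups were compared by edgeR 4.0.16 (quasi-likelihood F-test, two-sided; R 4.3.3, limma 3.58.1) with Benjamini-Hochberg adjustment over the 12210 genes tested and a threshold of 0.05. Each SE was derived from the log2 fold change and its F statistic. Intervals at 95% cover counting error only. Members and lists were chosen with earlier results of these data known. Values per library are given for Cdh1, for members called with a group mean of at least 5 CPM, for any member of at least 20 CPM, and otherwise by range. Up to 3 called genes of a pathway list are given with values, those of largest fold with at least 5 CPM. Cldn3, Cadm3 and Cadm4 were added after their values were seen. A few members are counted in the totals and are not reported here by name.

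Alternatives were other scaling (RLE, upper quartile, total count), no filter, DESeq2 1.42.0, limma-voom, only the 4 libraries compared, the replicate block, leaving out single libraries, and no ribosomal RNA genes. Leaving out USg 1 and DSg 1 together was added after the data were seen. Of the 74 symbols, 70 were current and 4 older names in the RefSeq table of GRCr8, which served for names, neighbours and promoters.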

Additional observations from a re-analysis of the deposited data

How the results depend on the processing

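No direction of a called member reversed under any of the 16 alternatives. The counts below cover junction members only, and shares of all genes were counted for the main fit only. A change in these counts therefore cannot be told apart from a change in calls across all genes. Members lower in DSg than USg numbered 2, and 5 without the filter, 5 with DESeq2, 4 with the replicate block (Cdh1 and Cldn11 added), 0 to 5 with 1 library left out and 11 without USg 1 and DSg 1 together. Members higher numbered 0, 0 to 2 with 1 library left out (2 without USg 1) and 12 without USg 1 and DSg 1 together. With 1 library left out, members higher in Spc than USg numbered 6 to 10 (main count 10), lower 5 to 13 (11), and lower than DSg 4 to 10 (9). Without USg 1 and DSg 1 together, 21 members were lower in Spc than USg and 31 lower than DSg, from a fit in which Spc alone keeps replicates, at 1 residual degree of freedom. Upper quartile and total-count scaling shifted the median of all genes by 0.15 in DSg against USg and by -0.22 and -0.19 in Spc against DSg, and no call changed direction. The replicate block also called Cdh17 (adjusted p = 0.0405) and Tjp1 (0.0428) higher in Spc than DSg, and for DSg against USg Cdh1 stood at 0.027 and Cldn11 at 0.0327; it otherwise left every count of members within 1.5 times its value. The correlation of same-numbered deviations was 0.25 between USg and DSg, -0.27 between USg and Spc and 0.01 between DSg and Spc. The labels give these libraries a shared number and nothing more, and the correlations cannot show whether they were paired. With 2 libraries a group and as few as 2657291 counts a library, members with few counts gave wide errors.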
